A study of Mus musculus with 6 samples.

Results

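Transfer RNAs (tRNAs) carry amino acids to the ribosome, where their anticodon pairs with the codon of the messenger RNA. RNA polymerase III transcribes their short genes, and the promoter lies inside the gene, in the A box and B box that transcription factor IIIC binds. Transcription factor IIIB then settles just upstream and recruits the polymerase. Polymerase III transcription is known to be repressed in mitosis and to resume as cells divide. This account covers the accessible chromatin at the nuclear tRNA genes of mouse embryonic stem cells leaving mitosis.

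The members were all genes that the RefSeq table of GRCm38.p6, the assembly of mm10, types as tRNA on chromosomes 1 to 19. There were 391, beside 64018 regions with a peak in any list of the series on these chromosomes. A gene was held by a list where a peak overlapped the gene or 200 bp either side. Of the 391 genes, 239 had a peak in at least 1 list. The 391 include 4 genes placed at bases 8361 to 11797 of chromosome 11 and 1 at 1440395 to 1440467. No list held them, and they count in the totals for threonine, proline, valine and leucine. Whether a peak could be called at these positions was not tested. A symbol such as n-TRtcg5 gives the amino acid in its one-letter code (R, arginine), the anticodon (TCG) and a number.

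Peaks came from ATAC-seq, in which the transposase Tn5 inserts adapters into open DNA. The 6 samples were CGR8 mouse embryonic stem cells in 3 groups of 2 replicates, called mito, LM and eG1-1 in the titles. These names are read here as mitosis, late mitosis and early G1, which the labels do not spell out, while peaks of the LM samples carry Telo in their names. All 6 titles name N2B27, the medium given for Cdt-MD cells, which were untreated and grew with 3 µM CHIR99021 (a GSK3 inhibitor), 1 µM PD184352 (which blocks MEK) and the cytokine LIF. The series' design text calls the line CGR8 Cdt1-MD. The 2 sources thus write the line's name differently, and whether it is a single clone is not given. The labels do not say whether replicates were separate cultures, and the cell number in the titles differs from that in the protocol.

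The 6 lists held 20639 to 48396 peaks. Their read depth is unknown, so where a list has no peak, DNA may still have been open below the caller's limit. Peak names carry a number that is read here as that of the sequencing run, which the titles do not give. All replicate 1 lists carry the same number and all replicate 2 lists another. Of 12 embryonic stem cell markers, 7 had a peak within the 473 bp window at a gene end in at least 1 list and Zfp42 had one in all 6. Of all 20665 protein-coding genes, 9444 had no peak at either end in any list and 23% had one in all 6. The stem cell marker counts thus do not stand out from coding genes in general. Pou5f1, Esrrb and Klf4 had none in these narrow windows. None of 5 endoderm and 4 blood markers had a peak, and Thy1 (5 lists) and Col1a2 (1 list) were the fibroblast markers with one.

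Sequence tables from RefSeq had no entry for the tRNA genes themselves. They did hold promoters of other genes (250 bases before to 50 after a start, GRCm38.p6), and 10 of these overlapped a tRNA gene. Of the 10, 6 held the B box, searched by its consensus on both strands, against 40 of all 31365 promoters (0.128%). In each of the 6, the match lay within the annotated tRNA gene. The A box, searched by its consensus, was in 3 of these 6 and in 22.1% of all promoters, and its matches can overlap other motifs. The 5 promoters below were picked after their values were seen, to show how differently tRNA genes with a B box match were held. The match is in capitals; for Polg and BC107364 it is on the strand opposite to that printed. For protein-coding genes, only the bases before the start are shown.

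Polg promoter with n-TRtcg5, chr7:79466274-79466523, minus strand: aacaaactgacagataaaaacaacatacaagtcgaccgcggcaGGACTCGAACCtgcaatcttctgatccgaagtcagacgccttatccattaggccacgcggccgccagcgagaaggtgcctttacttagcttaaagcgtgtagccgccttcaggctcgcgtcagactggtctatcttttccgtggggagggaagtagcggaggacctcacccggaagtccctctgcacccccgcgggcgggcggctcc
Gm38989 (a long noncoding RNA) promoter with n-TTagt9, chr7:35234765-35235064, minus strand: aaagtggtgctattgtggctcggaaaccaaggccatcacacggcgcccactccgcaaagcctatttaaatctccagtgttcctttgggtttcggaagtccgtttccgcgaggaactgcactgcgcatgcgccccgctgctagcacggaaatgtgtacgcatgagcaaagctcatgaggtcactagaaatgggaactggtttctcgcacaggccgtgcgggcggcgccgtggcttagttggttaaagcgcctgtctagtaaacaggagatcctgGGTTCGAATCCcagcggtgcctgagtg
Gm46404 (a long noncoding RNA) promoter with n-TVcac9, chr13:23445922-23446221, minus strand: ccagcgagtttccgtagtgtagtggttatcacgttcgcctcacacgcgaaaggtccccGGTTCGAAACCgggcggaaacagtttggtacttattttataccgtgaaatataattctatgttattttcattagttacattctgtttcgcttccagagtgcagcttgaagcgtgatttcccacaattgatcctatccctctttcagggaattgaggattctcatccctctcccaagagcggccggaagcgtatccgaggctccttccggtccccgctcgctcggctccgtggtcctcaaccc
Polr3e promoter with n-TLaag4, chr7:120917528-120917777, plus strand: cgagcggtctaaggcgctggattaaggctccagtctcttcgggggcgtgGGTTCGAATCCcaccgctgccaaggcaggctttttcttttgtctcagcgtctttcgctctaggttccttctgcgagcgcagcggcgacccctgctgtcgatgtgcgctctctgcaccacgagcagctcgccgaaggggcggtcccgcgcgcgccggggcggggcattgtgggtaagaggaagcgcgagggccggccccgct
BC107364 promoter with n-THgtg7, chr3:96452307-96452556, minus strand: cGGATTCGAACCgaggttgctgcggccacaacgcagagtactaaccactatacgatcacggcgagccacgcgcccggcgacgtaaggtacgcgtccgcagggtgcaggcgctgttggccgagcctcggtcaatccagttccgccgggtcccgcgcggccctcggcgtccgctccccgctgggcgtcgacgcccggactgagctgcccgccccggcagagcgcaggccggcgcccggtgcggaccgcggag

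The whole of n-TRtcg5, an arginine tRNA gene of 73 bp, lies in the Polg window, and Polg encodes the mitochondrial DNA polymerase. Its peak scored 193 and 217 (mito), 172 and 109 (LM) and 155 and 161 (eG1-1) (replicates 1 and 2). The score is the authors' own whole number per peak, 13 or more in every list, and is used only within a list. The threonine tRNA gene n-TTagt9 was also held by all 6 lists, with 54 and 50 (mito), 74 and 36 (LM) and 34 and 77 (eG1-1).

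The valine tRNA gene n-TVcac9 scored 76 and 90 in mito, 33 in LM replicate 1 and 44 and 60 in eG1-1, with no peak in LM replicate 2. The leucine tRNA gene n-TLaag4 sits in the promoter of Polr3e, which encodes a subunit of RNA polymerase III itself. It had a peak in mito replicate 1 (148) and LM replicate 1 (80) and in no other list, both of the same run as read from the peak names. The histidine tRNA gene n-THgtg7 was held by no list. A B box was thus present at genes held by all, some and none of the lists. Of the 40 promoters with the motif, 6 had a peak in all 6 lists (15%), against 16.5% of all promoters searched. As 34 of the 40 overlap no tRNA gene, this share says little about tRNA genes with a B box.

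tRNA genes were held more often than single protein-coding gene ends in every list, and more often than protein-coding genes with a peak at either end in 4 of 6 lists. The mito lists held 201 and 158 of the 391 genes (51.4% and 40.4%). The LM lists held 181 and 131 (46.3% and 33.5%), and the eG1-1 lists 145 and 167 (37.1% and 42.7%). In windows of 473 bp, the median width of the tRNA windows, the lists held 20.8% and 22.3% of 41330 protein-coding gene ends (mito), 21.1% and 15.3% (LM) and 18% and 22.6% (eG1-1). These ends include 3′ ends, where peaks are rarer than at starts. The tRNA share was thus 1.81 to 2.47 times that of single coding ends, with the highest ratio in mito replicate 1 and the lowest in mito replicate 2. Counted by gene, with a peak at either end, the lists held 40.7% and 43.4% (mito), 41.4% and 30.2% (LM) and 35.2% and 43.8% (eG1-1) of 20665 protein-coding genes. Against these the tRNA share was lower in mito replicate 2 and eG1-1 replicate 2 and higher in the other 4 lists. Other short RNA genes were held far less often: 3.87% to 4.62% of 931 small nuclear RNA genes, 0.778% to 2.1% of 1286 small nucleolar RNA genes and 3.7% to 7.66% of 1136 microRNA genes.

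**Figure D1:**
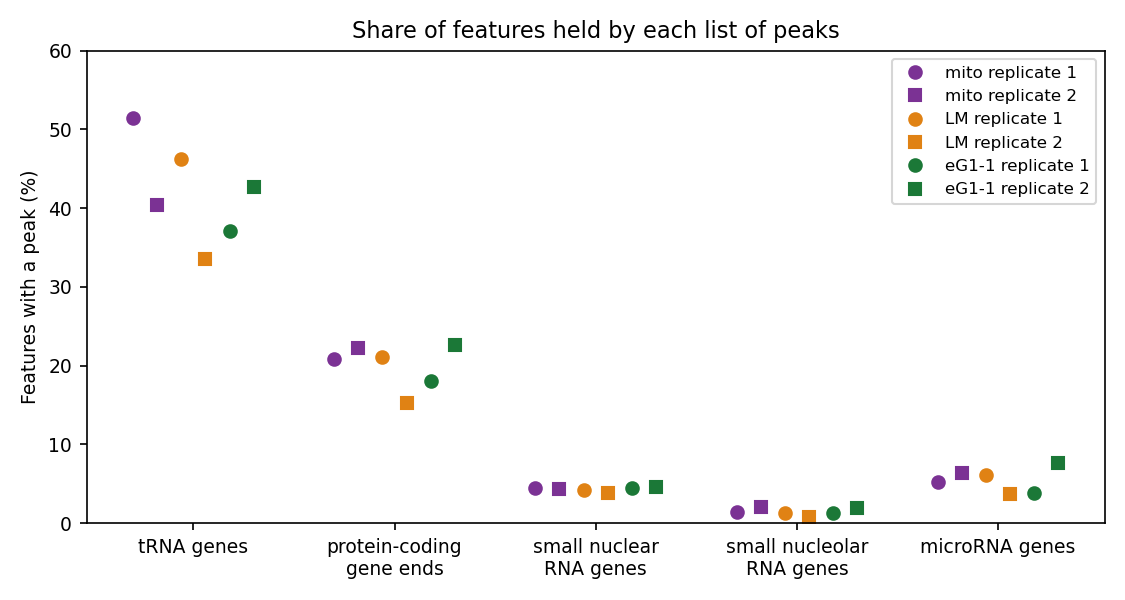
Share of features with a peak (%, vertical axis) in each of the 6 lists of peaks, for 5 kinds of feature. Circles are replicate 1, squares replicate 2, and colours are groups. All 6 tRNA values, from 33.5% to 51.4%, lie above those of protein-coding gene ends, and the replicates of each group lie apart.

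The groups did not separate by this share. Mito averaged 45.9% ± 7.78, LM averaged 39.9% ± 9.04 and eG1-1 averaged 39.9% ± 3.98 (SD, n = 2 each), so their differences were within the spread between replicates. By the numbers in the peak names, replicates of the same number share a sequencing run, so lists can also be compared within a run. Mito lay above LM in both runs, while the place of eG1-1 differed. In the first run the share was highest in mito and lowest in eG1-1. In the other run it was highest in eG1-1 and lowest in LM, where protein-coding gene ends were lowest too. When every list was cut to its 20639 highest-scoring peaks, as many as LM replicate 2 has, the eG1-1 lists held 122 and 97 genes, the LM lists 171 and 131 and the mito lists 181 and 144. Both eG1-1 lists then lay below all others, and these were the 2 lists that lost the most peaks.

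Of the 391 genes, 88 were held by all 6 lists (22.5%) and 152 by none (38.9%). Among protein-coding gene ends 11.5% were held by all 6 lists, and among all merged regions 15.5%. Each merged region has a peak in at least 1 list by construction, so its share is on another base than that of the 391 genes. Of the 239 tRNA genes with a peak in at least 1 list, 88 were held by all 6. Of protein-coding genes, 23% had a peak at either end in all 6 lists, close to the share of tRNA genes. Of the 88 genes, 21 lay within 1 kb of a protein-coding gene end, out of 47 such genes (44.7%), against 67 of the 344 genes farther away (19.5%). The genes near a coding end can share a peak with that gene. The farther genes alone were still held at 30.8% to 47.7% across the lists. Distance was taken to the annotated ends of each coding gene. The farther genes thus still include n-TRtcg5 and n-THgtg7, which lie in the Polg and BC107364 promoters shown above.

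Held tRNA genes, each taken with its highest-scoring peak, had median scores above those of their lists. A peak shared by several genes counts once per gene here, while the medians over lists count each peak once. The median score at held genes was 88 and 88.5 (mito), 82 and 61 (LM) and 62 and 77 (eG1-1). Over all peaks of the same lists it was 55 and 59, 53 and 48, and 49 and 57. In percentiles of each list these medians stood at 75.1 and 70.6 (mito), 72.8 and 64.5 (LM) and 63.7 and 65.4 (eG1-1). At equal list length the percentiles were 72 and 57.8 (mito), 71.5 and 64.5 (LM) and 48.4 and 47.5 (eG1-1), so the eG1-1 medians fell below the middle of their lists. Neighbouring genes shared peaks: the 201 genes held by mito replicate 1 touched 157 peaks, and the 131 of LM replicate 2 touched 110.

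The glycine tRNA gene n-TGgcc13 (chromosome 1, 171074302 to 171074372) had the highest mean percentile among the 88 genes held by all 6 lists. It scored 683 and 562 (mito), 625 and 354 (LM) and 274 and 539 (eG1-1), and it lies 8387 bp from the nearest end of a coding gene, Fcgr3. The methionine tRNA gene n-TMcat17 (chromosome 8, 121579229 to 121579301) scored 304 and 368 (mito), 368 and 253 (LM) and 454 and 579 (eG1-1). It lies 365 bp from an end of Fbxo31, which encodes an F-box protein. These 2 genes had mean percentiles of 99.5 and 99.3.

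The other 8 of the 10 highest among those 88 genes had mean percentiles of 92.7 to 96.2. They include 2 further arginine genes close to an end of a coding gene, n-TRacg2, 256 bp from Sacm1l, and n-TRacg6, 226 bp from Prmt5, the gene of an arginine methyltransferase. n-TRacg2 scored 253 and 152 (mito), 249 and 192 (LM) and 225 and 254 (eG1-1). n-TRacg6 scored 261 and 195, 179 and 147, and 192 and 267 in the same order. All values of both genes stood above their lists' medians, with the lowest in mito replicate 2 for n-TRacg2 and in LM replicate 2 for n-TRacg6.

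Alanine tRNA genes with the anticodon AGC made up 3 of the 10, n-TAagc9 (230 bp from Ppp6r3), n-TAagc8 (5552 bp from Sesn2) and n-TAagc7. n-TAagc8 scored 192 and 152 (mito), 144 and 196 (LM) and 216 and 355 (eG1-1), and n-TAagc9 scored 168 and 271, 227 and 157, and 170 and 316. n-TAagc7 and its neighbour, the valine gene n-TVcac2, had the same scores in 5 of 6 lists, 373 and 202 in mito, 204 in LM replicate 1 and 149 and 229 in eG1-1. In LM replicate 2, n-TAagc7 scored 88 and n-TVcac2 scored 80. The glycine gene n-TGgcc2, inside Gm38523, scored 150 and 178 (mito), 244 and 251 (LM) and 120 and 332 (eG1-1). The remaining gene is n-TRtcg5, given above. At n-TRtcg5, n-TVcac2 and n-TGgcc2 a peak touched the gene in every list. At the others some peaks lay only beside the gene. This was so at n-TAagc9 in LM replicate 1 and both eG1-1 lists, and at n-TAagc8 in mito and LM replicate 2. At n-TAagc7 it was so in mito replicate 2, LM replicate 2 and both eG1-1 lists. It was also so at n-TGgcc13 in LM replicate 2 and eG1-1 replicate 1, and at n-TMcat17, n-TRacg2 and n-TRacg6 in eG1-1 replicate 1.

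Every one of the 20 amino acids had at least 1 tRNA gene with a peak in every list, and 19 had a gene held by all 6. The exception was aspartate, with 0 of 16 genes held by all 6 lists and 8 held by none. Its genes with a peak numbered 6 and 4 (mito), 6 and 2 (LM) and 3 and 2 (eG1-1). Of 48 anticodons, 46 had a gene with a peak in some list and 36 had one held by all 6. A serine gene with the anticodon GGA and a histidine gene with ATG were the only annotated genes of their anticodons, and no list held them.

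Alanine and arginine genes were held most steadily. All 6 lists held 11 of 21 alanine genes (52.4%), and 10 of 23 arginine genes (43.5%), and no more than 2 of each were held by none. For alanine, 9 of the 13 genes with the anticodon AGC were held by all 6 lists. For arginine it was 4 of 6 with ACG and 3 of 4 with CCT but 0 of 5 with TCT. Tyrosine followed with 4 of 10 (40%).

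All 6 lists held 20% to 33.3% of the genes for glutamine (5 of 15), isoleucine and methionine (5 of 16 each), asparagine (4 of 13), phenylalanine (2 of 7), leucine (7 of 26), serine (5 of 22), valine (5 of 23), glutamate (4 of 20) and lysine (5 of 25). Lower shares were seen for histidine (2 of 11), glycine (5 of 28), threonine (3 of 18), proline (2 of 16) and tryptophan (1 of 8). In the methionine family, whose tRNAs also start translation, the lists held 11 and 8 genes (mito), 11 and 8 (LM) and 8 and 11 (eG1-1). In the first run 17 of 20 amino acids had fewer genes held in eG1-1 than in mito and 1 had more, while in the other run 5 had fewer and 8 more.

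**Figure D2:**
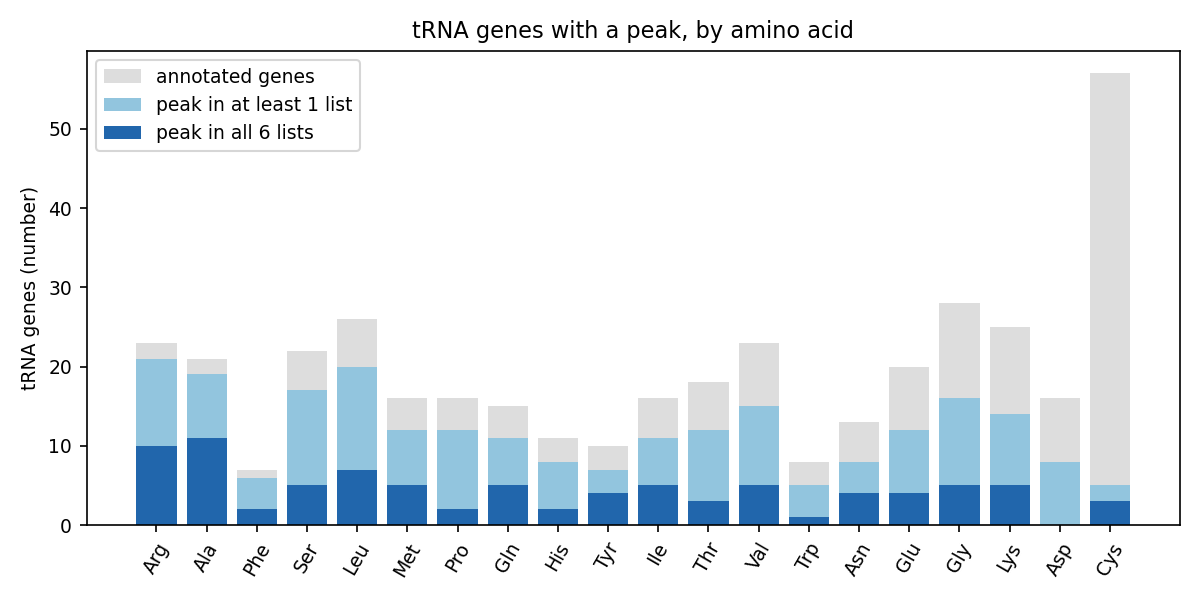
Number of tRNA genes (vertical axis) by amino acid, ordered by the share with a peak in at least 1 list. Bars are overlaid and start at 0: grey is all annotated genes, light blue those with a peak in at least 1 list, dark blue those with a peak in all 6 lists. Cysteine has 57 genes, of which 5 had a peak.

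Cysteine had the most genes, 57, and the lowest share with a peak. A single cluster of 48 of them on chromosome 6, from 48133937 to 48363603 (230 kb), had no gene held by any list. Over that whole span 5 lists had no peak at all and eG1-1 replicate 2 had 1. Of the 9 cysteine genes elsewhere, 5 had a peak and 3 were held by all 6 lists. The 50 genes of 5S ribosomal RNA, a further product of RNA polymerase III from near-identical copies, had no peak in any list either. How reads that match several places were treated is not given in the sources used here, and its part in these zeros was not tested. Without this cluster the mito share was 52.3%, and the LM and eG1-1 shares were 45.5% each.

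tRNA genes were then grouped into clusters wherever gaps were at most 50 kb. This gave 125 clusters, of which 13 had 5 or more genes and held 252 genes. Single genes varied little between lists, with 46 and 43 of 93 (mito), 49 and 40 (LM) and 41 and 45 (eG1-1). Genes in the 12 large clusters other than that on chromosome 6 varied more, with 121 and 81 of 204 (mito), 96 and 66 (LM) and 78 and 94 (eG1-1). All 6 lists held 31 of the 93 single genes (33.3%), 20 of 46 genes in clusters of 2 to 4 (43.5%) and 37 of these 204 (18.1%).

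Chromosome 13 had 4 large clusters, in the part of the genome that also holds the replication-dependent histone genes. The largest, of 36 genes from 23397060 to 23530419, had genes for 15 amino acids and 6 of the tyrosine genes. It had 24 and 11 genes held (mito), 14 and 10 (LM) and 12 and 16 (eG1-1). Mito replicate 1 stood above all others. The cluster of 32 genes from 21848022 to 22050767, with 8 serine genes, had 18 and 16 (mito), 13 and 7 (LM) and 16 and 15 (eG1-1). Here both LM lists lay below the 4 others. The cluster of 24 genes from 21160785 to 21326789, with 6 alanine genes, had 19 and 12 (mito), 15 and 12 (LM) and 10 and 13 (eG1-1). The cluster of 9 genes from 23270421 to 23317538, with 4 valine genes, was the most fully held, with 8 and 7 (mito), 6 and 6 (LM) and 7 and 8 (eG1-1).

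On chromosome 1, 25 genes from 171033942 to 171111515, among them 9 for glycine and 5 each for aspartate and leucine, had 10 and 8 held (mito), 11 and 9 (LM) and 5 and 10 (eG1-1). On chromosome 3, the 25 genes from 96322074 to 96501518, with 6 each for asparagine and histidine, had 10 and 9, 13 and 7, and 7 and 11 in the same order. In both clusters LM replicate 1 had the most genes, and eG1-1 replicate 1 had the fewest, on chromosome 3 together with LM replicate 2. On chromosome 11, 18 genes from 69037003 to 69125248 had 14 and 8 (mito), 7 and 6 (LM) and 8 and 5 (eG1-1), and 8 genes from 48818542 to 48857055 had 5 and 5, 5 and 2, and 3 and 6.

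In 2 of the smaller clusters the mito replicates stood far apart. On chromosome 19, 8 genes from 12002236 to 12012338 had 4 and 0 held (mito), 4 and 1 (LM) and 4 and 3 (eG1-1). On chromosome 17, 7 genes from 23533962 to 23550335 had 4 and 0, 2 and 1, and 1 and 1. On chromosome 14, 7 genes from 51063883 to 51090718 had 4 in each mito and LM list and 4 and 5 in eG1-1. The counts were level, but the genes were not the same: 1 of the 7, n-TYgta10, was held by all 6 lists. On chromosome 5, 5 genes from 125404250 to 125409543 had 1 or 2 in every list.

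**Figure D3:**
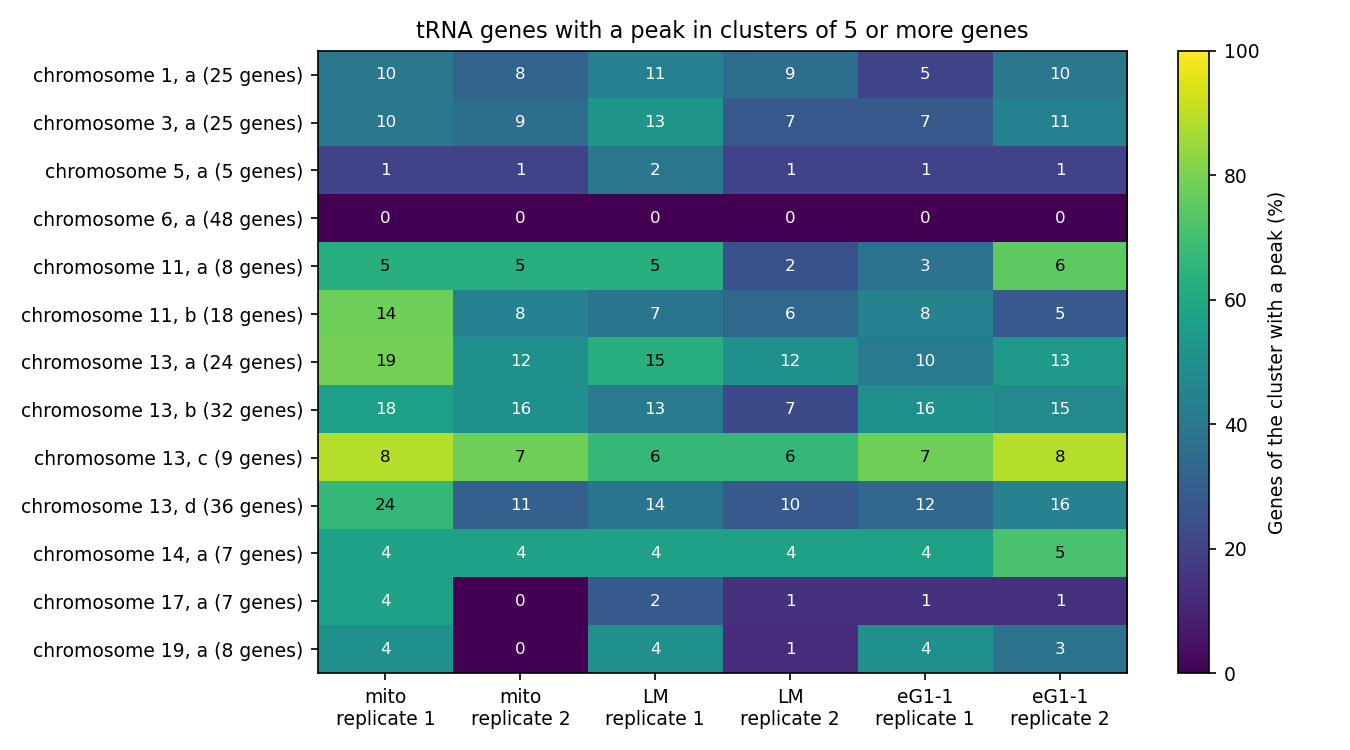
Clusters of 5 or more tRNA genes (rows) by list of peaks (columns). Colour is the share of the cluster's genes with a peak (%), and the printed number is the count. The 48 cysteine genes on chromosome 6 stand at 0 in all lists, and the 9 genes of cluster c on chromosome 13 at 6 to 8.

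Genes held by both lists of one group and neither list of another were few. With 2 lists against 2, an exact permutation test cannot go below p = 0.333, so these are counts without a test. Merged regions all have a peak in at least 1 list, while 152 of the 391 genes have none, so these shares are on unlike bases. For mito against eG1-1 the count was 9 of 391 genes (2.3%), against 1.25% of protein-coding gene ends and 1.85% of all merged regions. The reverse held for 1 gene (0.256%), against 0.726% and 8.1%. For LM against eG1-1 the count was 5 genes (1.28%), against 0.266% and 0.458%, and the reverse 8 (2.05%), against 1.05% and 9.37%. For mito against LM it was 6 (1.53%), against 1.06% and 3.55%, and the reverse 1 (0.256%), against 0.172% and 0.918%. Single coding ends were held less often than tRNA genes in every list, so shares by gene, at either end, follow. Of 20665 protein-coding genes they were, in the same order, 2.33%, 1.27%, 0.498%, 1.87%, 1.97% and 0.329%. Against these the tRNA share was higher for LM against eG1-1 in both directions and no higher for the other pairs. With 1 list standing for a group, the tRNA counts in the order given were 10 to 35, 6 to 11, 8 to 25, 13 to 22, 9 to 33 and 3 to 12. At equal list length, the counts became 15 for mito and not eG1-1, 13 for LM and not eG1-1, 1 for eG1-1 and not LM and 3 for mito and not LM.

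The comparison of mito and eG1-1 asks which tRNA genes had a peak before but not after the return to interphase. The glutamine gene n-TQctg5 (chromosome 3) scored 274 and 107 (mito) and 170 and 77 (LM), and eG1-1 had no peak there. The alanine gene n-TAagc12 (chromosome 13) scored 286 and 235 (mito) and 141 and 48 (LM), again without one in eG1-1. The arginine gene n-TRacg3 (chromosome 3) scored 39 and 90 (mito) and 96 and 70 (LM). These 3 genes were thus held by all 4 earlier lists and by no eG1-1 list.

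The other 6 genes on the mito side scored 13 to 91 in mito and lacked a peak in at least 1 LM list. The proline gene n-TPcgg2 (91 and 68) and the alanine gene n-TAcgc9 (13 and 37) also had a peak in LM replicate 1 (77 and 59), as did the serine gene n-TSaga8 (55 and 31 in mito, 31 in LM). At n-TSaga8 every peak lay beside the gene and none on it. The arginine gene n-TRccg3 (32 and 36) had one in LM replicate 2 (33). The proline gene n-TPcgg3 (16 and 69) and the valine gene n-TVaac3 (54 and 27) had peaks in the mito lists alone. In the other direction stood the methionine gene n-TMcat10 (chromosome 13, 21931169), which scored 62 and 68 in eG1-1 and had no peak in the 4 earlier lists.

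Between LM and eG1-1, the phenylalanine gene n-TFgaa6 (chromosome 19) scored 180 and 26 in LM and 132 in mito replicate 1. The aspartate gene n-TDgtc14 (chromosome 5) scored 60 and 47 in LM and had no peak elsewhere, which also makes it the 1 gene held by LM and not by mito. Less than 500 bp from it, the alanine gene n-TAtgc5 had peaks of 78 and 49 in the eG1-1 lists, 29 in mito replicate 2 and none in LM. These neighbours lie 4660 and 4204 bp from Dhx37 and were held by different groups. The contrast depends on the window rule. Peaks at n-TAtgc5 lay beside the gene only, and the windows of the 2 genes overlap. With overlapping windows merged, the count for LM and not mito was 0.

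Other genes lacked a peak in both LM lists. The serine gene n-TStga2 scored 90 and 68 in mito and 91 and 61 in eG1-1, and the glutamate gene n-TEttc5 97 and 50 and 67 and 48, with no peak in LM for either. The phenylalanine gene n-TFgaa1 (85 in mito replicate 2, 37 and 72 in eG1-1), the alanine gene n-TAagc13 (36 in mito replicate 1, 36 and 54 in eG1-1) and the valine genes n-TVtac1 and n-TVtac2 were also held by eG1-1 and not by LM. Peaks at n-TAagc13 lay beside the gene only. The 2 valine genes share 1 peak, with 38 in mito replicate 1 and 39 and 65 in eG1-1. The histidine gene n-THgtg6 (50 and 49) and the isoleucine gene n-TIaat7 (32 and 24) were held by mito and not by LM, with 1 eG1-1 peak each (33 and 36). LM replicate 2 was the shortest list.

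**Figure D4:**
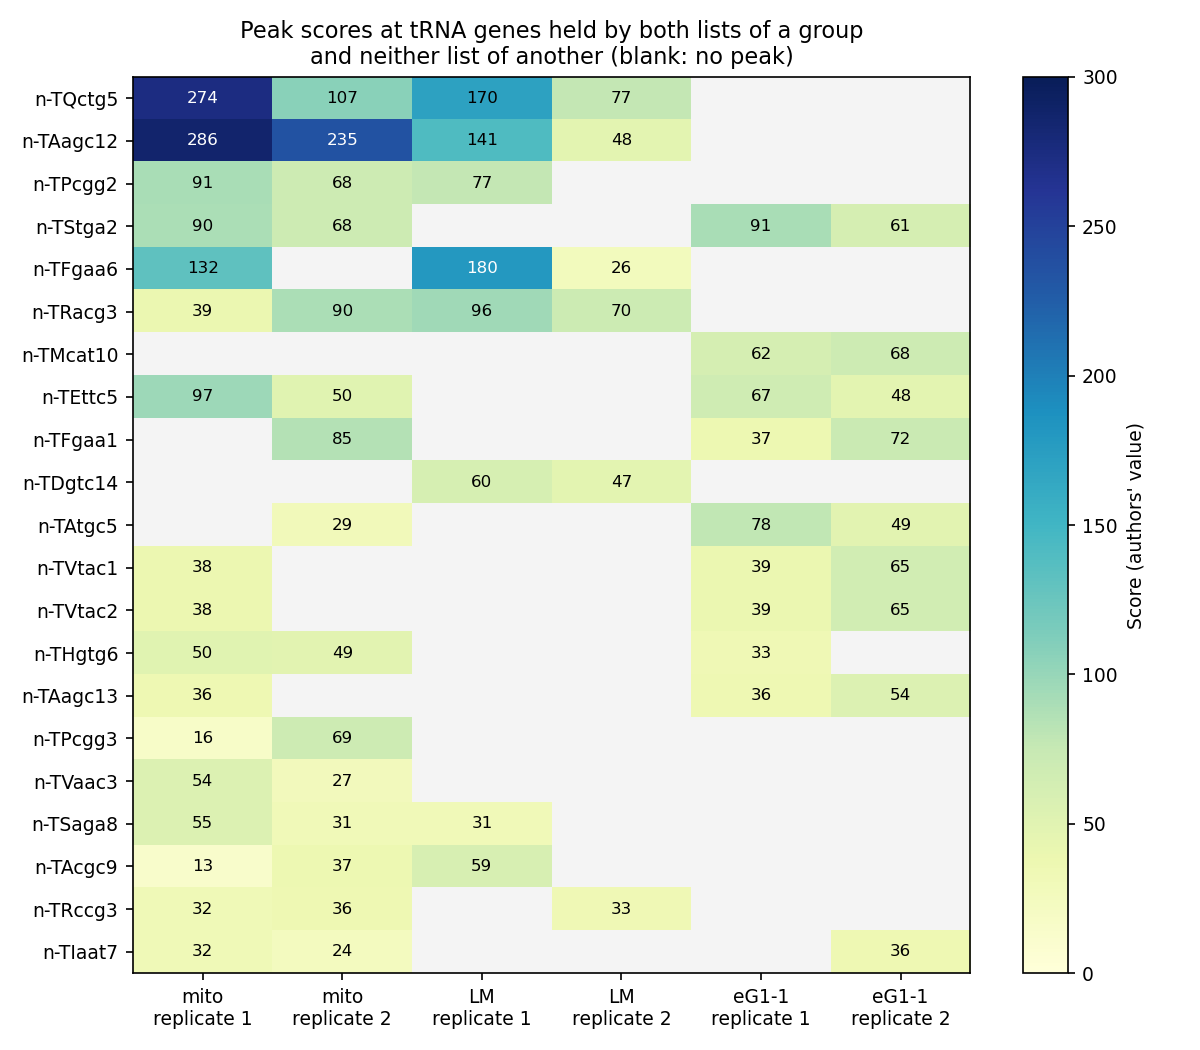
Peak scores (colour and printed number, the authors' value) at the 21 tRNA genes held by both lists of a group and neither list of another, by list of peaks (columns), ordered by mean percentile. Blank cells have no peak. n-TQctg5 and n-TAagc12 reach 274 and 286 in mito replicate 1 and have no peak in eG1-1. For n-TAagc12 the scored peaks lie beside the gene and not on it.

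Of these 21 genes, 11 were on chromosome 13 and 0 lay within 1 kb of a protein-coding gene end. Among all 391 genes, 105 were on chromosome 13 and 47 lay that close to a coding end. A called gene must have a peak, but no list held 22 of the 105, 8 of the 47 and 152 of all 391. Neighbouring genes can share a peak, so the 21 genes are not independent. Within a run, mito and not eG1-1 held 69 genes in the first (17.6%) and 23 in the other (5.88%), against 5.4% and 3.3% of coding ends. eG1-1 and not mito held 13 (3.32%) and 32 (8.18%), against 2.63% and 3.67%. The 2 runs thus pointed opposite ways for this pair of groups. Mito and not LM held 40 genes in each run (10.2%), against 2.65% and 7.93% of coding ends. LM and not mito held 20 and 13 (5.12% and 3.32%), against 2.98% and 0.944%. For this pair both runs pointed the same way, and in the run of replicate 2 coding ends did so as well. LM and not eG1-1 held 59 and 17 (15.1% and 4.35%), against 5.55% and 0.82%. eG1-1 and not LM held 23 and 53 (5.88% and 13.6%), against 2.46% and 8.18%. As every list held a smaller share of coding ends than of tRNA genes, these shares are on unlike bases.

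In the lists as deposited, peaks at tRNA genes differed between groups in where they lay, though this did not hold at a fixed peak width, given below. In mito, 81.1% and 76.6% of the held genes had a peak on the gene body, and the rest had one only in the 200 bp beside it. The shares were 75.1% and 71.8% in LM and 55.9% and 67.1% in eG1-1. All mito values thus lay above all LM values, and these above eG1-1, with means in that order of 78.8% ± 3.19, 73.4% ± 2.39 and 61.5% ± 7.92 (SD, n = 2 each). At protein-coding gene ends, with a window of 73 bp in place of the gene body, the shares were level: 83.4% and 81.1% (mito), 83.8% and 80.5% (LM) and 81.3% and 80.9% (eG1-1).

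Coverage around the genes was measured next. In eG1-1 the gene centre was covered by a peak at 13.8% and 19.7% of the 391 genes, and positions 150 bp away at 20.7% and 26.3%. The ratio of centre to 150 bp was 0.667 and 0.748 in eG1-1, 1.05 and 0.894 in mito and 0.963 and 0.979 in LM. At coding gene ends the ratio was 1.06 to 1.22 in all lists. Coverage fell to 0.256% to 1.15% at 2000 bp. Farther out it was higher again, at 1.15% to 2.56% at 5000 bp and 1.92% to 4.09% at 10000 bp, but below that at the gene centre in every list. The centre was thus less covered than the sides in 5 of 6 lists, most in eG1-1, and in no list at coding ends.

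**Figure D5:**
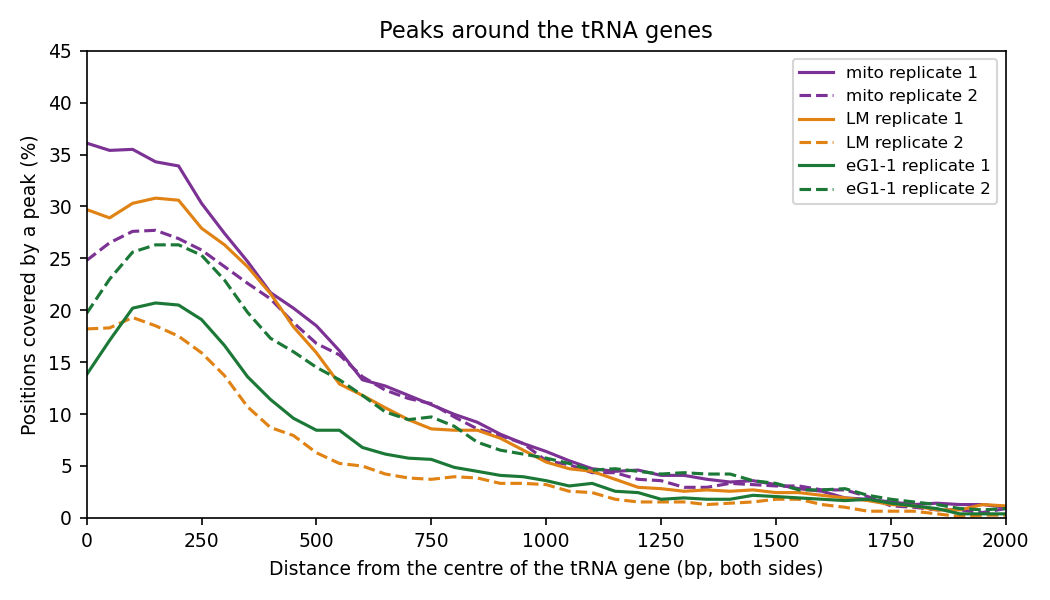
Share of positions covered by a peak (%, vertical axis) against the distance from the centre of the tRNA gene in bp (both sides averaged, 391 genes), 1 line per list, solid for replicate 1 and dashed for replicate 2. The eG1-1 lines dip at the centre, to 13.8% and 19.7%, and all lines fall to between 0.256% and 1.15% at 2000 bp.

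The order of the groups did not hold at a fixed peak width. Peaks at tRNA genes had a median width of 553 and 656 bp (mito), 542 and 376 bp (LM) and 382 and 473 bp (eG1-1), while all peaks had 456 and 503, 459 and 336, and 340 and 410 bp. With every peak set to 300 bp around its centre, the shares with a peak on the body became 57.3% and 49.2% (mito), 50.7% and 64.8% (LM) and 50.4% and 51.8% (eG1-1), and the groups overlapped. The ratios of centre to 150 bp then became 0.91 and 0.868 for mito, 0.844 and 0.963 for LM and 0.889 and 0.965 for eG1-1, below the 1.14 to 1.28 of coding ends in every list. At equal list length, eG1-1 replicate 2 (72.2%) lay above LM replicate 2 (71.8%).

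By the gene body alone, the count for mito and not eG1-1 was 24 genes (6.14%), against 1.22% of coding gene ends in a window of like width, and the reverse 1 (0.256%), against 0.598%. Of the 24 genes, 19 still had a peak beside the gene in at least 1 eG1-1 list and 8 in both. LM and not eG1-1 held 13 (3.32%, against 0.293%), and the reverse 7 (1.79%, against 0.859%). Mito and not LM held 12 (3.07%, against 0.944%), and LM and not mito 3 (0.767%, against 0.172%). These counts use peaks at their deposited width, which at tRNA genes was larger in both mito lists than in both eG1-1 lists. They were not recomputed at a fixed width. Coding ends were also held less often than tRNA genes in every list, so the shares are on unlike bases. The flanks alone supplied 37 to 64 of the held genes per list (18.9% to 44.1%). The nearest peak lay 1 to 100 bp from the gene at 26 to 49 genes per list, 101 to 200 bp at 7 to 15 and 201 to 300 bp at 4 to 10.

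The genes of the polymerase III machinery were followed at either end of each gene, in windows of 473 bp. Of 31 genes for polymerase subunits and factors, 17 were held by all 6 lists, against 23% of 20665 protein-coding genes. The lists held 26 and 27 of them (mito), 24 and 21 (LM) and 21 and 22 (eG1-1). Brf1, a subunit of transcription factor IIIB, scored 347 and 265 (mito), 362 and 238 (LM) and 377 and 551 (eG1-1). Maf1, the repressor of polymerase III, scored 235 and 167, 113 and 53, and 152 and 197. Polr3g, a polymerase subunit known from embryonic stem cells, scored 189 and 195, 174 and 52, and 71 and 164.

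For mito and not eG1-1 the count was 4 of the 31, against 2.33% of protein-coding genes, and 0 the other way (1.27%). For LM and not eG1-1 it was 1 (0.498%) and 0 the other way (1.87%), and for mito and not LM 1 (1.97%) and 0 the other way (0.329%). The 4 were Polr3c (128 and 97), a polymerase III subunit, Polr1c (36 and 50), a subunit shared with polymerase I, and Gtf3c4 (149 and 79) and Gtf3c6 (45 and 115), both of transcription factor IIIC. Polr1c also had peaks in both LM lists (45 and 60), while Polr3c had none there. Of 16 genes for tRNA processing and export, 11 were held by all 6 lists. Elac2, which trims the 3′ end of tRNA precursors, scored 165 and 201 (mito), 191 and 143 (LM) and 286 and 332 (eG1-1). Trnt1, which adds the terminal CCA, scored 108 and 258, 75 and 81, and 40 and 49. The tRNA exporter Xpot was held in mito (93 and 99) and LM (91 and 73) and not in eG1-1.

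Besides the 5S genes, 8 other genes of RNA polymerase III were followed. All 6 lists held 4 of the 8. Rn7sk, the 7SK RNA that restrains transcription elongation, scored 92 and 121 (mito), 142 and 47 (LM) and 68 and 64 (eG1-1). Rmrp, the RNA of RNase MRP, scored 173 and 163, 121 and 66, and 99 and 105. Rpph1, the RNA of RNase P, which trims the 5′ end of tRNA precursors, scored 98 and 81, 141 and 69, and 89 and 157. Rn7s1, a signal recognition particle RNA, scored 99 and 105, 116 and 17, and 24 and 82. For Rmrp both mito values lay above all others, though scores of different lists are not on a known common scale. Rny1, a Y RNA, had peaks in mito (35 and 36) and LM replicate 1 (32) and none in eG1-1. U6 RNA genes were not analysed here.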

How the data were processed

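ATAC-seq peaks of 6 samples were used. Each list has 5 columns, and the 5th is a whole-number score, which is the authors' own value per peak as deposited, with its scaling not given. Per the submitters' processing notes, the tools were MACS2 2.2.4, STAR 2.7.0e, SAMtools 1.10, bedtools, deepTools 3.5.1 and Picard, and the builds mm10 and GRCm38. Peaks carry sample names and BAMPE in the deposited lists, so they were called for each sample on paired-end fragments. Not given in the sources used here are the threshold, any shift of read ends for Tn5 and the treatment of reads with several matches. The file names say that blacklisted regions were removed.

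Groups came from the sample titles. Overlaps, percentiles within a list and counts were computed with Python 3.11.15, pandas 2.3.3 and NumPy 2.4.6. The overlap code was tested on simulated data. Windows of 473 bp at protein-coding gene ends and regions merged from peaks overlapping by at least 1 bp served as background. No p-value was computed. The members, gene lists and rules were chosen with earlier results of these data known. The rule for named genes took the 10 members held by all lists with the highest mean percentile, all members held by both lists of a group and neither of another, clusters of 5 or more genes and each amino acid. Machinery genes were named where held by both lists of a group and neither of another; further ones were chosen after their values were seen. No separate table of tRNA gene sequences was used.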

Additional observations from a re-analysis of the deposited data

How the results depend on the processing

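Of 91 alternatives other than leaving out a list, 58 moved a count by at most 1.5 times or a share or percentile by less than 1 SD of its 2 lists, among them 6 with the replicate block. With the gene body only, mito held 36.3%, LM 29.4% and eG1-1 24.7%, the genes held by all lists 36, and the counts 12 for mito and not LM, 3 for LM and not mito, 24 for mito and not eG1-1 and 13 for LM and not eG1-1. At a score of at least 50 the shares were 36.8%, 28.3% and 28.3%, and the counts 13 for mito and not LM, 3 for eG1-1 and not mito and 2 for LM and not eG1-1, while the share with a peak on the body was 76.1% in LM. At equal list length the eG1-1 share was 28%, the median percentiles were 64.9 in mito and 48 in eG1-1, and the counts were 3 for mito and not LM, 15 for mito and not eG1-1, 13 for LM and not eG1-1 and 1 for eG1-1 and not LM. With 500 bp either side the eG1-1 share was 44.1%, and the counts were 3 for eG1-1 and not mito and 3 for LM and not eG1-1. With overlapping windows merged into 350 loci, the counts were 0 for LM and not mito, 2 for LM and not eG1-1 and 5 for eG1-1 and not LM. Without the chromosome 6 cluster, an alternative chosen after seeing the data, the eG1-1 share was 45.5%. With all peaks at 300 bp, also chosen later, the shares on the body were 53.3% (mito), 57.7% (LM) and 51.1% (eG1-1). Gaps of at most 10 kb gave 22 clusters. The cause of these differences was not tested.

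Leaving out a list gave 9 to 33 genes for mito and not LM, 3 to 12 for LM and not mito, 10 to 35 for mito and not eG1-1, 6 to 11 for eG1-1 and not mito, 8 to 25 for LM and not eG1-1 and 13 to 22 for eG1-1 and not LM. A rule met by 1 list in place of 2 is easier to meet, so these rise by construction. Genes held by all remaining lists numbered 90 to 100. With the replicate block, which asks for the same difference in every pairing of lists, the counts were 6, 1, 9, 1, 5 and 8, identical by construction. Depth is unknown, so absence of a peak is limited by it.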

Other observations

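The X chromosome, outside the rule, has 17 annotated tRNA genes, and 2 of them had a peak. The valine gene n-TVtac3 was held by all 6 lists, with scores of 90 and 223 (mito), 108 and 62 (LM) and 93 and 172 (eG1-1). The arginine gene n-TRcct4 had a peak in eG1-1 replicate 2 (28) alone. None of the alanine genes there had a peak in any list.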
